A study of Mus musculus with 2 samples.

Results

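The 46 genes described here encode nuclear receptors, the family of transcription factors that bind hormones, vitamins or lipids, or have no established ligand. They were taken as a listed set of gene symbols and joined by gene identifier to the 55536 genes of the tables, and all 46 matched. They were read in 3 classes: 11 receptors for hormones and for vitamins A and D, 11 lipid sensors together with the shared RXR partners, and 24 orphan receptors. RNA came from a calf muscle, the gastrocnemius, taken from B6CASTF1/J females at 4 days of age. B6CASTF1/J is a hybrid line with a C57BL/6J and a CAST/EiJ parent, and the labels name no treatment. There was 1 group with 2 libraries, for which 300 ng of ribosome-reduced total RNA with ERCC spike-ins was used. The labels call them biological replicates 1 and 2, with animals numbered 3 and 4 under a single donor record, so the spread between libraries is all the error that can be given. There was no contrast between conditions, and no p-value is given.

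A nuclear receptor carries a DNA-binding domain of zinc fingers and, in most members, a pocket for a small ligand. Thyroid hormone, retinoic acid, vitamin D, PPAR and LXR receptors usually sit on DNA as pairs with an RXR. Without ligand many of them hold corepressors of the NCoR family, and ligand exchanges these for coactivators. Some steroid receptors, such as the glucocorticoid receptor, wait in the cytoplasm on chaperones of the HSP90 system. Orphan receptors include the REV-ERB and ROR proteins of the circadian clock, the ERR proteins that drive genes of oxidative metabolism with PGC-1 coactivators, and the NR4A proteins, which are induced within minutes by many stimuli. In skeletal muscle, thyroid hormone and glucocorticoid are known regulators of fibre maturation and of protein turnover.

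The libraries held 30961087 and 36246031 expected counts, of which the 46 receptor genes took 32171 and 37568. Marker genes fitted the labelled tissue: Acta1, the skeletal actin, was at 11663 and 13964 TPM (a level per transcript length, scaled for depth), and none of 4 neuronal markers reached 1 TPM in either library. All listed markers of satellite cells, fibroblasts, endothelium, mural cells, macrophages, Schwann cells and tendon were detected. Red cell, neutrophil and tendon markers were lower in replicate 2, with median log2 ratios of -2.47, -2.21 and -1.04, and Schwann cell markers had one of 0.45. Liver, bone and fat markers are given below beside the receptors they bear on. In whole muscle, fewer cells of a type and less RNA per cell cannot be told apart.

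Detected means at least 1 TPM in both libraries. Of the 46 receptor genes, 28 were detected, against 54.8% of 22028 protein-coding genes measured by the same rule. They were 7 of 11 hormone receptors, 8 of 11 lipid sensors and RXR partners, and 13 of 24 orphans. The median of the detected receptors was 12.3 TPM, beside 9.4 TPM over all 13336 detected genes. Receptor mRNA was concentrated in few genes: Thra and Nr3c1 together took 30.4% of the summed receptor TPM in replicate 1 and 31.7% in replicate 2. By class, hormone receptors took 42.8% ± 0.639 of the sum (SD, n = 2), orphans 34.0% ± 1.08 and lipid sensors with RXR 23.1% ± 0.442.

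**Figure D1:**
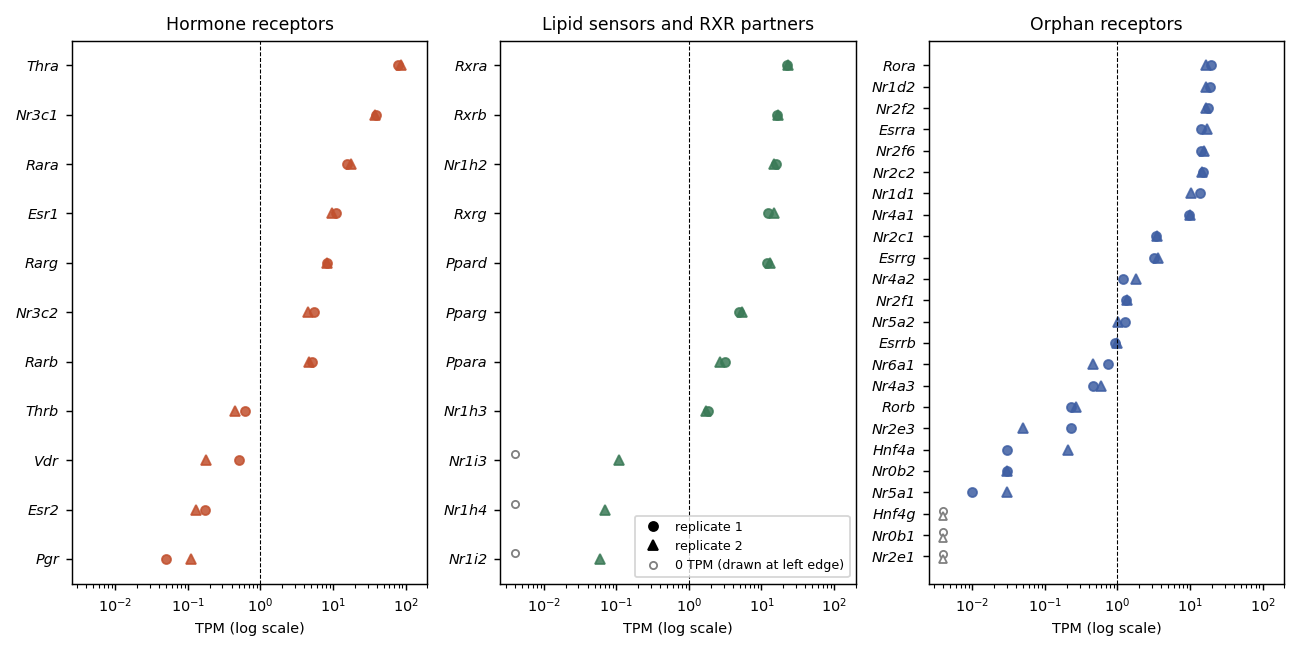
TPM of each of the 46 nuclear receptor genes on a log axis, by class, with replicate 1 as circles, replicate 2 as triangles and the 1 TPM detection line dashed; open grey symbols at the left edge stand for 0 TPM. Thra stands above all other receptors at 79.7 and 86.9 TPM, and most genes have nearly the same level in both animals.

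The order of levels was resolved at the top, not in the middle, and in part below. Thra, Nr3c1 and Rxra followed each other with no overlap between the libraries. From Rora down to Nr4a1, each gene overlapped its neighbour in the order, so 14 genes between 18.2 and 9.82 mean TPM form a run without a resolved order between neighbours. From Nr4a1 down to the last detected receptor, 6 of 11 neighbouring pairs were apart and 5 overlapped. Of the 27 neighbouring pairs among detected receptors, 9 were apart and 18 overlapped.

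The most abundant receptor mRNA was that of Thra, the alpha thyroid hormone receptor. Thra (chromosome 11, 98740638 to 98769006, plus strand, mm10) was at 79.7 and 86.9 TPM, or 83.3 ± 5.11 (SD, n = 2), above 93.9% of all detected genes. It was at 2.05 and 2.26 times Nr3c1, the next receptor. Thrb, the beta receptor, was at 0.62 and 0.44 TPM from 53 and 67 expected counts, and was under the detection line. Thra thus made up 99.2% and 99.5% of the thyroid receptor TPM.

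The largest share of that Thra mRNA was assigned to a transcript whose protein is known not to bind thyroid hormone. Thra-201 encodes the 492-residue alpha-2 form, which keeps the DNA-binding domain but has another C-terminus, and Thra-202 encodes the 410-residue alpha-1 form, the hormone receptor proper. Thra-201 was at 38.5 and 43.5 TPM, and Thra-202 at 21.8 and 23.0 TPM. As shares of the gene, alpha-2 took 49.2% ± 1.28 and alpha-1 26.9% ± 0.607 (SD, n = 2). Thra-203, whose annotated coding sequence is incomplete and whose last exon starts further inside the span of the last alpha-2 exon, took 15.6% ± 0.725, and transcripts annotated as noncoding took 8.18%. The separate quantification, which was deposited alongside and is called the other quantification here, gave 48.7% for Thra-201 and 26.6% for Thra-202. The alpha-2 transcript was above the alpha-1 transcript in both libraries under both quantifications.

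The coding sequences of the alpha-2 and alpha-1 transcripts are identical over their first 1111 bases, which hold 370 whole codons, and then part. The 90 coding bases around that point are shown from GENCODE M21, with shared bases in lower case and the bases after the parting in capitals, because they are what tells the forms apart. In Thra-202 they lie in a single stretch, chr11:98764377-98764466, and in Thra-201 they are spliced from there to an exon that ends the displayed bases at position 98768217.
Thra-201, alpha-2: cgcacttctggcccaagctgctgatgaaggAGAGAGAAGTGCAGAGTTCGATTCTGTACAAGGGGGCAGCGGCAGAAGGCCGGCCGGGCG
Thra-202, alpha-1: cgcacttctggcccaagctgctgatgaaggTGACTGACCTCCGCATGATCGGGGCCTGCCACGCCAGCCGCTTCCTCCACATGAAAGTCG

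The alpha-2 exon lies against the clock repressor gene Nr1d1, which is read from the opposite strand. Exons of Thra-201 and Nr1d1 overlap by 263 bases and exons of Thra-203 and Nr1d1 by 130 bases. Thra-202 ends before it reaches the Nr1d1 gene, whose 3′ end faces Thra. Nr1d1 (chromosome 11, 98767932 to 98775333, minus strand) was at 13.6 and 10.3 TPM. The sources used here do not say whether counting used strand, so reads of the overlap could go to either gene. The overlap is 10.7% of the Thra-201 exon length and 8.55% of the Nr1d1 exon length.

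**Figure D2:**
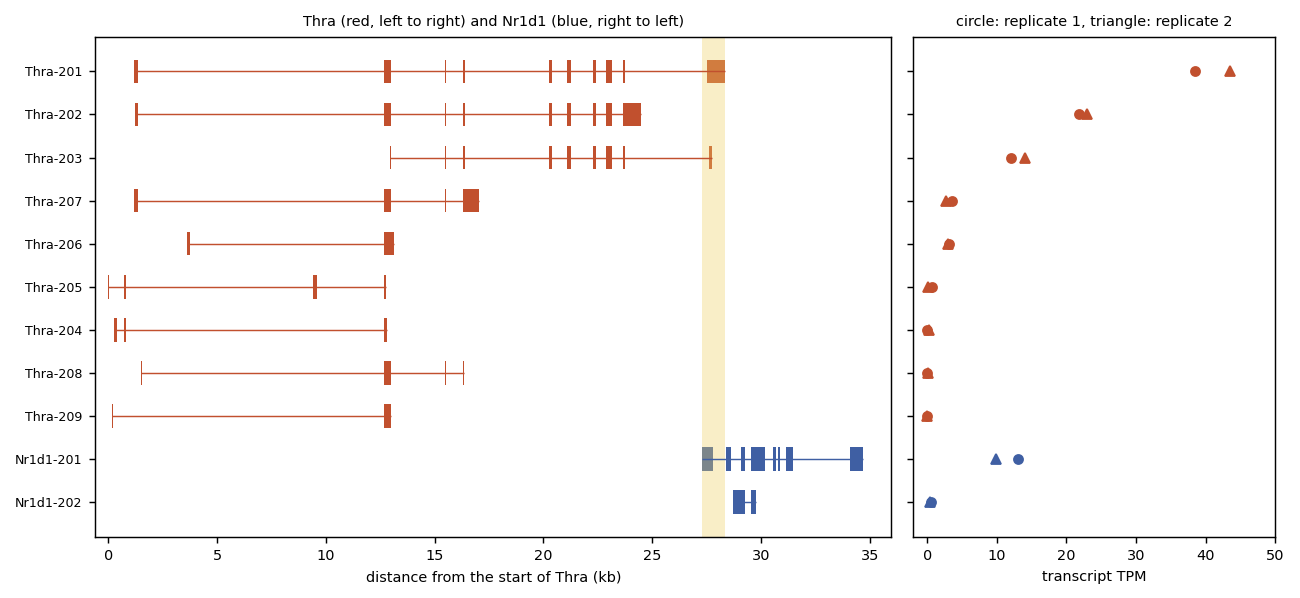
Exons of every annotated Thra transcript (red) and Nr1d1 transcript (blue) by distance from the start of Thra in kb, with the TPM of each transcript at right (circle replicate 1, triangle replicate 2). The shaded band runs from the lowest coordinate of the Nr1d1 gene, which is its 3′ end, to the last base of Thra. Thra-201, the most abundant transcript at 38.5 and 43.5 TPM, reaches into the band, and Thra-202 does not.

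Genes that bring thyroid hormone to its receptor were in part detected. The transporter Slc16a10 (MCT10) was at 8.28 and 7.88 TPM. Dio2, the deiodinase that makes active hormone, was at 0.87 and 0.79 TPM, under the detection line. Dio1 and Dio3, the other deiodinases, were at 0 TPM in replicate 1 and at 0.06 and 0.09 TPM in replicate 2, and the transporter Slco1c1 stayed at 0.18 TPM or lower. All 7 listed thyroid hormone target genes were detected, led by Atp2a1, the fast-fibre calcium pump, at 2022 and 2405 TPM.

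Nr3c1, the glucocorticoid receptor, was the next receptor in level, at 38.8 and 38.5 TPM, or 38.6 ± 0.219 (SD, n = 2). Its longer transcripts drew more expected counts than Thra, 4986 and 5704 against 4410 and 5501, while its level per length was lower. Nr3c2, the mineralocorticoid receptor, was at 5.43 and 4.57 TPM, which left Nr3c1 with 88.6% ± 1.18 of the pair. Transcripts encoding the 792-residue glucocorticoid receptor took 63.0% ± 1.27 of the Nr3c1 TPM, and a transcript encoding 793 residues took 14.3% ± 2.03. Which of the long 792-residue transcripts led was not stable: Nr3c1-203 took 36.3% and 61.2% in the libraries and 9.44% in the other quantification, where Nr3c1-204 led with 34.3%.

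The machinery that serves steroid receptors was expressed throughout. All 7 chaperones and cochaperones of the HSP90 system were detected, with Hspa8 at 452 and 522 TPM and Hsp90ab1 at 431 and 486 TPM. Hsd11b1, which regenerates active glucocorticoid, was at 1.56 and 1.42 TPM, H6pd, which supplies its cofactor, at 24.0 and 27.4 TPM, and Hsd11b2, which inactivates the hormone, at 4.12 and 5.14 TPM. All 10 glucocorticoid target genes were detected, led by Cdkn1a, a cell cycle inhibitor, at 56.1 and 54.9 TPM. Of 5 steroid-synthesis markers only Cyp11a1, the side-chain cleavage enzyme, was detected, at 2.48 and 2.07 TPM.

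Retinoic acid receptors were all present. Rara was at 15.4 and 17.7 TPM, Rarg at 8.28 and 8.21 TPM and Rarb at 5.16 and 4.73 TPM, so that their order held in both animals without overlap. Their shares of the family were 55.6% ± 3.12, 27.8% ± 1.37 and 16.7% ± 1.75 (SD, n = 2). The 462-residue alpha-1 form of Rara took 72.0% ± 0.0613 of its TPM and the 459-residue alpha-2 form 28.0% ± 0.0613. After a shared start codon, these forms differ within their first 178 and 169 coding bases. They share the last 1208 coding bases, which hold 402 whole codons.

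Rarb is itself a classical retinoic acid target, and its start region is shown because its upstream bases alone among the matched receptors held a direct repeat of the receptor core motif. Promoters from the RefSeq table matched 42 of the 46 genes. In the 250 bases before each start, both strands were searched for the core motif AGGTCA, for its variants that begin with G (GGGTCA), hold T inside (AGTTCA) or do both (GGTTCA), and for direct repeats of these with gaps of 0 to 5 bases. The Rarb window (chr14:16575477-16575726, minus strand, GRCm38.p6) is printed 5′ to 3′ with core motifs in capitals.
Rarb: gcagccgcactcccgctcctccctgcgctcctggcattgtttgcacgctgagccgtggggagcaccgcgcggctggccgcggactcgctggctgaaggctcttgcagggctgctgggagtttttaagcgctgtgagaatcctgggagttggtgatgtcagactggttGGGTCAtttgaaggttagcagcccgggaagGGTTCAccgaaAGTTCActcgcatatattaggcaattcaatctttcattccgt

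The repeat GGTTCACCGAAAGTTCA runs from position -53 to -37 and has a gap of 5 bases, the spacing known for retinoic acid response elements. Such a repeat was found in 29 of 32817 promoters, or 0.0884%, and in 1 of the 42 receptors. The core motif AGGTCA alone was in 17.5% of the 63 promoters of receptor genes, against 14.03% of all. Counting its variants too, 38.1% of the promoters of receptor genes held at least 1 motif, against 38.6% of all. A match is a description of letters and not a measured site. Positions count from the RefSeq start. In GENCODE M21, Rarb-201, with 74.4% of the Rarb TPM, starts at chr14:16575543, inside the printed window, and the repeat lies after that start. Of the Rarb exon bases, 34.1% overlap Top2b on the opposite strand, which was at 38.2 and 36.5 TPM.

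Genes that make and clear retinoic acid were detected in 7 of 12 cases. Dhrs3, which returns retinal to retinol, led at 19.6 and 19.9 TPM, and the synthesizing enzyme Aldh1a2 was at 9.5 and 10.8 TPM. The binding protein Crabp1 was at 8.18 and 7.12 TPM, while its relative Crabp2 was at 0.56 and 0.49 TPM. None of the 3 clearing enzymes of the Cyp26 family was detected in both libraries; Cyp26b1 was at 1.05 and 0.69 TPM and the others at 0.11 TPM or lower.

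Among sex steroid receptors Esr1, the alpha estrogen receptor, was at 11.01 and 9.77 TPM, and Esr2 and Pgr, the beta estrogen and progesterone receptors, were under the detection line at 0.17 and 0.13 TPM and at 0.05 and 0.11 TPM. Esr1 took 98.6% ± 0.147 of the estrogen receptor TPM. Vdr, the vitamin D receptor, was at 0.5 and 0.18 TPM. Cyp24a1, the vitamin D clearing enzyme and a sensitive Vdr target, held 0 counts in both libraries, and neither Cyp2r1 nor Cyp27b1 was detected.

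The RXR genes, whose proteins are the common partners, were all above 10 TPM. Rxra was at 22.4 and 23.2 TPM, Rxrb at 16.3 and 16.8 TPM and Rxrg at 12.5 and 14.7 TPM, in the same order without overlap. Their shares of the family TPM were 43.1% ± 0.939, 31.3% ± 0.747 and 25.6% ± 1.69 (SD, n = 2). By expected counts, which favour long transcripts, Rxra took 66.2%. Summed, the RXR genes were below Thra alone in TPM.

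Rxrg, the RXR most tied to skeletal muscle, was mostly assigned to a short form. Rxrg-202, which encodes 340 residues, was at 8.85 and 10.52 TPM and took 71.4% ± 0.512 of the gene, and transcripts for the full 463 residues took 28.6% ± 0.512. The 340 codons of the short form are the last 340 of the full form, so it lacks the first 123. The other quantification reversed the order, with 43.0% for the short form and 56.98% for the full form, so which form led depends on the quantification.

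PPAR receptors, which sense fatty acids, followed the order Ppard, Pparg, Ppara. Ppard was at 12.02 and 13.3 TPM, Pparg at 4.92 and 5.31 TPM and Ppara at 3.11 and 2.66 TPM, with no overlap. Ppard was 2.44 and 2.50 times Pparg, and 3.86 and 4.98 times Ppara. Of 12 PPAR target genes 11 were detected, with the fatty acid handling genes Cd36 at 169 and 173 TPM and Fabp3 at 162 and 175 TPM.

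Pparg, the adipocyte regulator of the family, has a long form of 505 residues known from fat cells and a form of 475 residues of wider expression. The long form adds 90 bases, or 30 codons, before the start codon of the short form, and these are shown in capitals because they are the whole coding difference. The bases printed for the long form lie on chr6:115422111-115439877, plus strand, across a splice junction.
Pparg-201 (505 residues): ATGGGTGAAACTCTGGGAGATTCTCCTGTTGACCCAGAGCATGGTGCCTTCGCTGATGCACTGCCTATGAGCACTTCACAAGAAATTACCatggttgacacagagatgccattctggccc
Pparg-204 (475 residues): atggttgacacagagatgccattctggccc
The long form took 49.1% and 32.8% of the Pparg TPM in replicates 1 and 2, and the short form 30.8% and 55.6%. In the other quantification the long form took 8.54% and the short form 52.4%. With 207 and 279 expected counts for the gene, these libraries did not settle the ratio of the forms. Fat cell markers were present beside it, with Fabp4 at 273 and 217 TPM and Adipoq at 37.9 and 31.9 TPM. Of the 6 markers 5 were lower in replicate 2, with a median log2 ratio of -0.40 over the list, while Cfd was higher, at 46 and 59.6 TPM. The log2 ratio of Pparg was 0.25, and the part of fat cells in its level was not tested.

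LXR receptors, which sense oxysterols, were represented mainly by Nr1h2, the beta form, at 15.9 and 14.8 TPM, while Nr1h3, the alpha form, was at 1.83 and 1.74 TPM. Nr1h2 was 8.69 and 8.5 times Nr1h3. All 7 LXR target genes were detected, led by Apoe at 64.6 and 64.5 TPM and Srebf1, a regulator of lipid synthesis, at 20.4 and 20.5 TPM. Of 5 enzymes of oxysterol and bile acid synthesis, only Cyp27a1 was detected, at 2.43 and 2.59 TPM.

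The receptors for bile acids and foreign compounds were near 0. Nr1h4 (FXR), Nr1i2 (PXR) and Nr1i3 (CAR) held 0 counts in replicate 1, which allows up to 0.0568, 0.0437 and 0.0636 TPM at 3 counts, and 4, 5 and 4 counts in replicate 2. In the gene model, 74.9% of Nr1i3 exon bases overlap Tomm40l on the opposite strand, which held 643 and 747 counts.

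**Figure D3:**
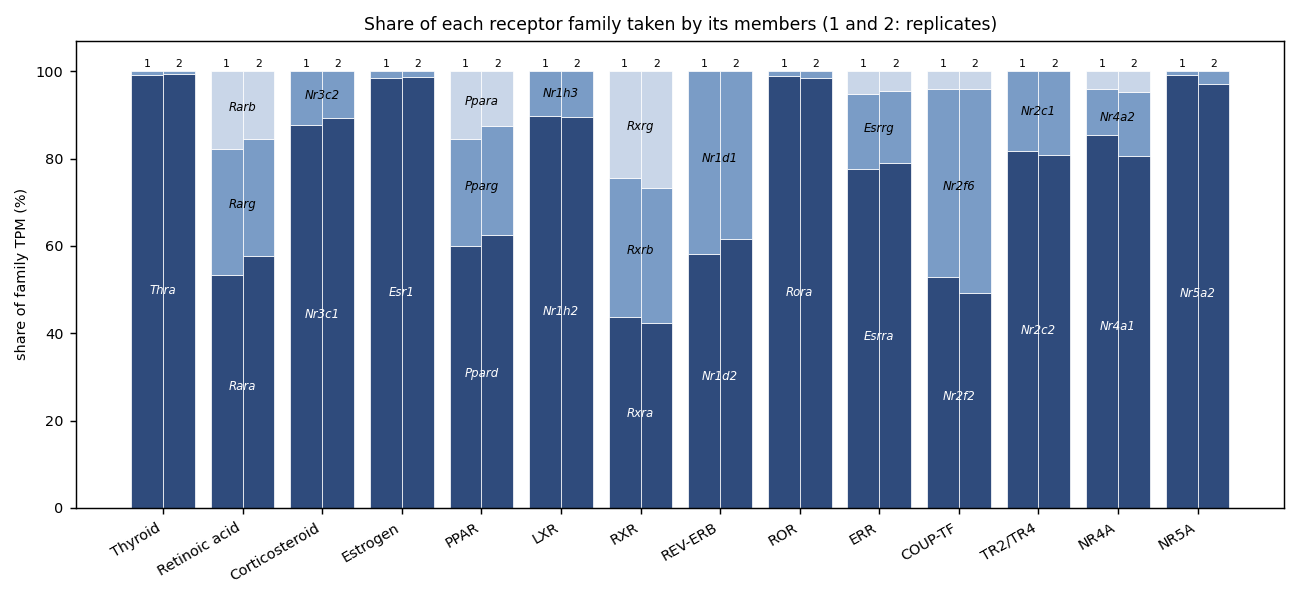
Share of family TPM taken by each member in replicates 1 and 2, as stacked bars that sum to 100%; shares are over the listed genes only, and members under 10% are not labelled. A single gene takes nearly the whole of the thyroid, estrogen, ROR and NR5A bars, while the RXR, retinoic acid, PPAR, REV-ERB and COUP-TF bars are divided.

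Among orphans, clock receptors of opposite action were close to each other in level. Rora, an activator of clock genes, was at 19.5 and 16.8 TPM, and the REV-ERB repressors Nr1d2 and Nr1d1 were at 18.8 and 16.6 TPM and at 13.6 and 10.3 TPM. Each of the 3 genes was lower in TPM in replicate 2. Nr1d2 took 59.9% ± 2.55 of the REV-ERB TPM. Rorb was at 0.23 and 0.27 TPM, which left Rora with 98.6% ± 0.291 of the pair.

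Rora spans 734 kb, the longest of the 46 genes, and was divided between forms. The 523-residue alpha-1 form took 39.2% ± 2.43 and the 467-residue alpha-4 form 30.3% ± 0.701, which share their last 457 codons. Transcripts not annotated as protein-coding took 30.5% of Rora and 29.2% of Nr1d2. These include transcripts annotated for nonsense-mediated decay, which hold a coding sequence, such as Rora-206 at 2.88% of Rora. Among the 28 detected receptors the share was largest in Rxrb, at 31.8%. Its median was 11.4% over the 28 and also 11.4% over all 12064 detected protein-coding genes. For Nr1d2 the noncoding share, all of it in transcripts annotated with a retained intron, was 35.5% in replicate 1 and 22.8% in replicate 2. The coding transcript Nr1d2-201 itself was at 12.1 and 12.8 TPM, and the shorter coding transcript Nr1d2-204 at 0 TPM in both. The other quantification divided the gene differently: of 33.9 and 26.4 TPM it gave Nr1d2-204 20.01% and 5.26%, and Nr1d2-201 56.5% and 74.8%. Which transcripts made up the lower gene TPM of replicate 2 thus depended on the quantification. All 5 clock genes listed as REV-ERB and ROR targets were detected, at 2.46 to 9.47 TPM, with Arntl (BMAL1) at 3.67 and 3.46 TPM.

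COUP-TF receptors were led by Nr2f2 and Nr2f6. Nr2f2, known from veins and mesenchyme, was at 17.5 and 16.4 TPM, Nr2f6 at 14.3 and 15.6 TPM, and Nr2f1 at 1.32 and 1.36 TPM. Nr2f2 took 51.0% ± 2.58 of the family and 62.5% in the other quantification, where Nr2f6 took 33.4%. Of the Nr2f6 exon bases, 54.4% overlap Ocel1 on the opposite strand, which was at 2.95 and 3.56 TPM. Nr2c2 (TR4) was at 15.01 and 14.7 TPM and its relative Nr2c1 (TR2) at 3.35 and 3.49 TPM. Of the Nr2c2 exon bases, 30.7% overlap Mrps25, at 12.8 and 14.9 TPM, and Nr2c2 and Nr1d2 were the 2 receptors with fractional expected counts.

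ERR receptors, regulators of oxidative metabolism, were led by Esrra at 14.3 and 17.3 TPM, which was 4.48 and 4.79 times Esrrg, at 3.2 and 3.6 TPM. Esrrb was just under detection at 0.94 and 0.98 TPM. The partner coactivators were detected too, with Ppargc1b at 10.6 and 10.6 TPM and Ppargc1a (PGC-1 alpha) at 7.08 and 5.96 TPM. All 7 ERR target genes were detected, led by Atp5b, a subunit of ATP synthase, at 1162 and 1317 TPM.

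NR4A receptors were led by Nr4a1 (Nur77) at 9.6 and 10.03 TPM. Nr4a2 was at 1.19 and 1.8 TPM and Nr4a3 at 0.46 and 0.6 TPM. Of the NR5A pair, Nr5a2 was at 1.26 and 1.02 TPM, and Nr5a1, the regulator of steroidogenic cells, held 1 and 3 counts. Nr6a1 was at 0.73 and 0.46 TPM. The remaining orphans were all at 0.23 TPM or lower: Hnf4a and Nr2e3 with 28 counts or fewer, Nr0b2 with 1 count in each library, and Hnf4g, Nr0b1 and Nr2e1 with 0 in both. For those 3, a count of 0 allows up to 0.0492, 0.0627 and 0.0895 TPM in replicate 1.

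Cofactors shared by the receptors were present in full. All 8 corepressor genes were detected, led by Ncor1 at 74.1 and 65.1 TPM. All 11 coactivator genes were detected, led by Carm1 at 31.99 and 31.6 TPM and Crebbp at 22.3 and 22.8 TPM, with Ncoa1 at 21.5 and 19.7 TPM. The range over the 8 corepressors was 7.95 to 74.1 TPM and their median 19.6 TPM, and the median over the 11 coactivators was 14.4 TPM.

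Few genes of any kind, receptors included, were far apart in level between the animals. Ratios are given as log2 of replicate 2 over replicate 1 after scaling by trimmed mean of M values. At a mean of at least 100 counts, 0 of 28 receptors were over 2-fold apart, against 0.718% of 12257 genes by the same rule. Their log2 ratios ran from -0.39 for Nr1d1 to 0.40 for Nr4a2. The count of 0 rests on fold size alone, without a test. With so small a share over all genes, it does not set the receptors apart. From a mean of 10 counts upward, the median of 37 receptors was 0.06, beside -0.0015 over all 17598 such genes. In replicate 2, 23 of them were higher against 49.6% of all genes, and 14 were lower against 50.4%. Scaling by spike-ins moved the median of all genes to -0.14 and that of the receptors to -0.08, with 14 of 37 higher against 24.2% of all genes, so directions of this size depend on the scaling.

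**Figure D4:**
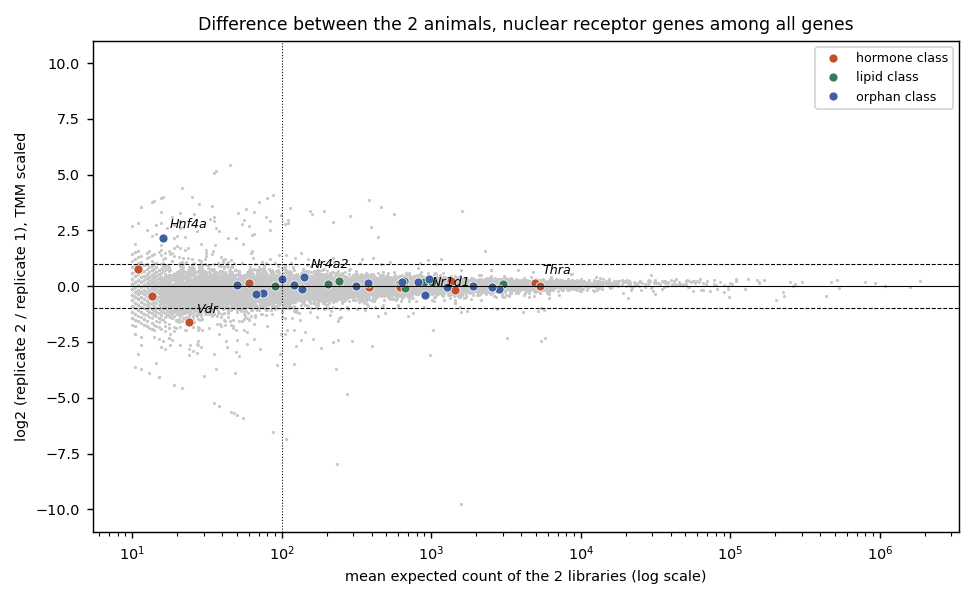
Log2 ratio of replicate 2 over replicate 1 against mean expected count on a log axis, for all 17598 genes that averaged 10 counts or more (grey) and the 37 receptors among them (coloured by class); dashed lines mark 2-fold and the dotted line 100 counts. Right of the dotted line no receptor lies beyond a dashed line, and left of it Vdr and Hnf4a do.

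Nr1d1 showed the lowest ratio among the well-counted receptors. It held 967 counts in replicate 1 and 836 in the deeper replicate 2, a fold of 0.765 (95% counting interval 0.696 to 0.84, from the exact binomial method). Nr1d2, its relative, had a fold of 1.01 (0.948 to 1.08) and Rora one of 0.917 (0.87 to 0.966), so the REV-ERB genes did not move together in counts. Per1, a clock gene that glucocorticoid also induces, was at 22.7 and 12.4 TPM, a log2 ratio of -0.94. The sources used here give no time of day of collection, and its part in these values was not tested.

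At the other end stood Nr4a2, with 112 and 168 counts and a fold of 1.33 (1.04 to 1.70), Esrra with 804 and 1140 counts and a fold of 1.25 (1.14 to 1.37), and Nr2f1 with 83 and 117 counts and a fold of 1.25 (0.933 to 1.67). Counting intervals leave out the variation between animals. The square root of the dispersion over all genes of these libraries, the biological coefficient of variation, was 0.127. All 8 immediate early genes, which respond to stimuli as Nr4a genes do, were higher in replicate 2, against 49.6% of all genes. Their median log2 ratio was 0.51, and the lowest, for Atf3, was 0.0034, with 3.92 and 3.74 TPM. Fos was at 4.33 and 7.73 TPM, and Jun at 12.6 and 21.1 TPM. Nr4a1 was also higher, with a fold of 1.13 (1.01 to 1.27). Nr4a3, on 72 and 63 counts, had a fold of 0.774, with a counting interval of 0.543 to 1.10 that spans 1. In TPM Nr4a3 went the other way, at 0.46 and 0.6. By library size 7 of the 8 immediate early genes were higher, against 40.4% of all genes. With spike-in scaling it was also 7 of the 8, against 24.2% of all genes.

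Among genes that averaged 10 counts or more, 2 of 37 receptors were over 2-fold apart, against 3.75% of all genes. Vdr held 36 and 12 counts, a fold of 0.295 (0.14 to 0.58), and Hnf4a held 4 and 28 counts, a fold of 6.19 (2.17 to 24.3). Markers of other tissues differed in the same directions. All 7 liver markers were higher in replicate 2, with a median log2 ratio of 3.36 and a summed level of 10.9 and 110 TPM, led by Alb at 4.69 and 48.0 TPM. Hnf4a is a regulator of hepatocytes, and Nr1i2, Nr1i3 and Nr1h4, also known from liver, had counts in replicate 2 only. All 8 bone and cartilage markers were lower in replicate 2, with a median log2 ratio of -3.91 and a summed level of 53.6 and 11.4 TPM. Of these, Ibsp, Mmp13 and Col10a1 held 0 counts in replicate 2. Osteoblasts are a known site of Vdr. The part of these markers in the Vdr and Hnf4a counts was not tested.

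**Figure D5:**
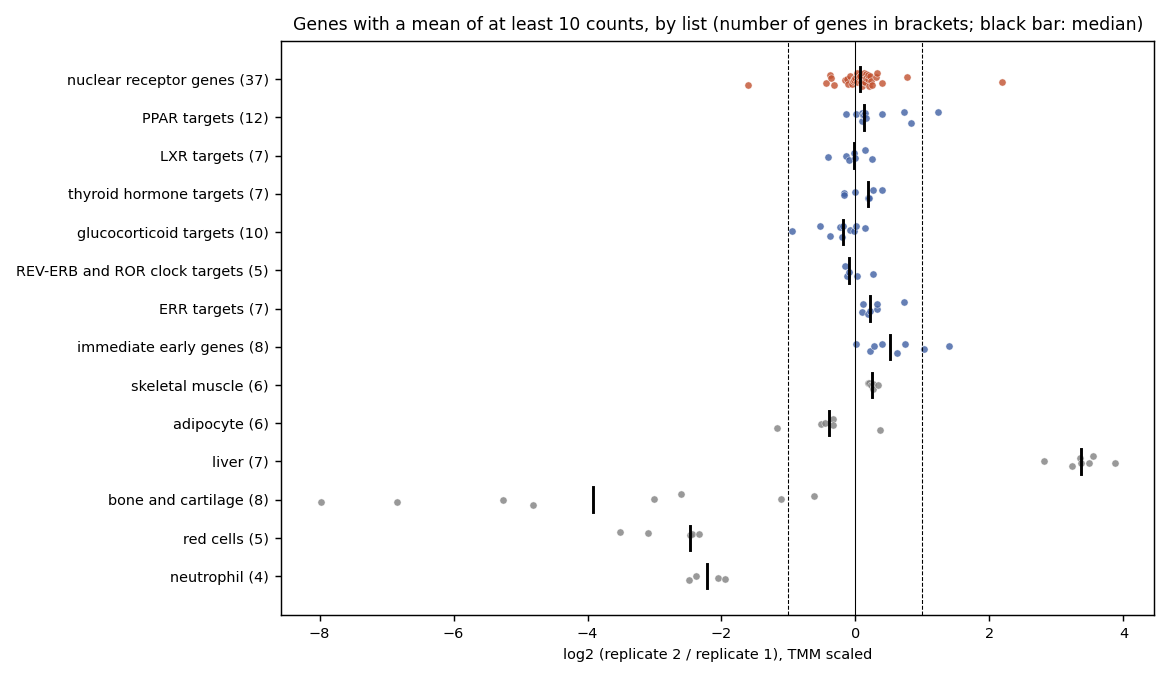
Log2 ratio of replicate 2 over replicate 1 for each gene that averaged 10 counts or more, for the nuclear receptors (red), target gene lists (blue) and marker lists (grey), with the number of genes in brackets and the median as a black bar. Receptors lie near 0 with a median of 0.06, while liver markers have a median of 3.36 and bone and cartilage markers one of -3.91.

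As lists, target genes of the receptors had medians near 0. The median log2 ratio was 0.13 over 12 PPAR targets, -0.02 over 7 LXR targets, 0.18 over 7 thyroid hormone targets, -0.19 over 10 glucocorticoid targets, -0.04 over 6 retinoic acid targets, -0.09 over 5 clock targets and 0.21 over 7 ERR targets, beside -0.0015 over all genes. The retinoic acid list includes Rarb and the ERR list Esrra, which are receptors themselves. In replicate 2, 11 of 12 PPAR targets were higher against 49.6% of all genes. By library size it was 10 of 12 against 40.4%, and with spike-in scaling 6 of 12 against 24.2%, with a PPAR median of -0.01. The ERR targets were all higher in replicate 2, and 5 of 7 with spike-in scaling. Skeletal muscle markers were also all higher, with a median of 0.24, and their part in the ERR target values was not tested. Of the glucocorticoid targets 8 of 10 were lower against 50.4% of all genes, and 10 of 10 against 75.8% with spike-in scaling, which lowers every ratio. Nr3c1 itself had a log2 ratio of 0.02, or -0.12 with spike-in scaling.

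A few target genes were further apart than any receptor with a mean of at least 100 counts. Pdk4, which restrains glucose oxidation and stands in both the PPAR and ERR lists, was at 37.0 and 60.4 TPM, a log2 ratio of 0.72. Angptl4, an inhibitor of lipoprotein lipase, was at 9.63 and 16.9 TPM, a log2 ratio of 0.83. The PPAR genes had log2 ratios of 0.18 for Ppard, 0.25 for Pparg and 0.08 for Ppara.

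Some receptor genes are neighbours in the genome. Thra, Nr1d1 and Rara lie within 234 kb of chromosome 11, and their means were 83.3, 11.9 and 16.5 TPM. Rarb, Thrb and Nr1d2 lie within 1.81 Mb of chromosome 14, at 4.95, 0.53 and 17.7 TPM. Each group held genes of widely different level.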

How the data were processed

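The labels gave 1 group of 2 libraries. Per the file headers and accompanying notes, the authors deposited gene and transcript tables holding expected counts (estimates that can be fractional) plus TPM, and a transcript table from a separate run with estimated counts plus TPM, on mm10 with GENCODE M21. The sources used here name no aligner, quantification program or strand setting. Reads from the CAST/EiJ genome were thus assigned to a C57BL/6J reference. The separate tables were summed per gene as the other quantification, whose TPM were 1.78 and 1.70 times higher at the median detected gene.

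Expected counts were rounded and scaled with edgeR 4.0.16 (R 4.3.3); log2 ratios used a prior count of 2. With a single group there was no test between groups. The ratio script was tested on simulated data. Counting intervals are exact binomial (Clopper-Pearson, 95%); like the limit of 3 counts used where a gene held 0, they describe counting error alone, because PCR copies could not be told from separate molecules. Isoform sequences came from GENCODE M21 transcripts and promoters from RefSeq (GRCm38.p6). Python 3.11.15 with scipy 1.17.1 and matplotlib 3.10.9 was used.

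The receptor genes, their classes, the 16 pathway lists and the 15 marker lists were chosen with earlier results of these data known. Receptors of at least 10 TPM, up to 4 of highest TPM and those under 1 TPM in each list, and genes over 2-fold apart were named by rule; other list genes were named after their values were seen, and some genes of the lists are counted but not reported by name here. Alternatives were other detection limits, units, class boundaries, scalings (library size, DESeq2 1.42.0 size factors, spike-ins), count minimums, prior counts, and each library alone.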

Additional observations from a re-analysis of the deposited data

How the results depend on the processing

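With 2 libraries and no contrast, only levels and their spread can be given, and isoform shares rest on how reads common to several transcripts were divided. Detection gave 24 to 35 of 46 receptors over the 7 alternatives tried, against 28. The share of hormone receptors was 44.6% in the other quantification and 49.5% without RXR genes. That of the lipid class was 19.4% by expected counts, 22.1% in the other quantification, 11.2% without RXR genes and 35.4% with REV-ERB, ROR and HNF4 genes added. That of orphans was 38.1% by expected counts, 39.3% without RXR genes and 21.8% after that move. With replicate 1 or 2 alone the shares were 42.4% to 43.3%, 22.8% to 23.4% and 33.3% to 34.8%. Receptors over 2-fold apart numbered 2 from a mean of 10 counts and 6 with no minimum, and 0 in the other 7 alternatives. The median log2 ratio of the receptors was -0.0759 with spike-in scaling, and above 0 in the other 7. The leading member of each of the 14 families stayed the same in all 56 alternatives. Of 19 leading transcripts, 6 did not lead in the other quantification, where their shares were 9.44% for Nr3c1-203, 23.2% for Nr2f2-201, 21.1% for Rxrb-202, 3.86% for Nr4a1-201, 8.54% for Pparg-201 and 14.2% for Nr3c2-204. Nr1h2-201 led with 36.3% in replicate 2 but not in replicate 1, at 15.8%. The cause of these shifts was not tested. No paired analysis was possible because there is a single group.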
